A study of Mus musculus with 12 samples.

Results

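The genes described here encode the cyclin-dependent kinase (CDK) inhibitor proteins, taken as every protein-coding row whose symbol is Cdkn1 or Cdkn2 followed by a letter from a to d. The rule found 4 of the 12584 genes in the table: Cdkn1a (p21), Cdkn1b (p27), Cdkn2c (p18) and Cdkn2d (p19). Cdkn1c, Cdkn2a and Cdkn2b are not analysed here. RNA was sequenced from CT26 cells, a mouse colon carcinoma line, after 24 h with NP-D@MP, NP-D@M, NP@M or PBS, with 3 libraries per group, numbered 10 to 12, 7 to 9, 4 to 6 and 1 to 3 in that order of groups. The labels do not spell out these names; the series title speaks of a nanodrug with an engineered cancer cell membrane that acts on CDKs. Whether the 3 libraries of a group stem from 3 cultures is not said in the labels; the p-values then reflect no more than the variation among these libraries, which could be technical.

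CDK inhibitors are small proteins that hold back the cell cycle. The Cip/Kip family, here Cdkn1a and Cdkn1b, binds complexes of cyclins with CDKs, chiefly those of Cdk2, and can also help cyclin D to assemble with Cdk4. The INK4 family, here Cdkn2c and Cdkn2d, binds Cdk4 and Cdk6 alone and keeps cyclin D from joining them; without active kinase, the retinoblastoma proteins stay bound to E2F factors. Cdkn1a is the classic transcriptional target of p53, whereas the p27 protein is known for control through degradation. Both INK4 genes are known for levels that change through the cell cycle.

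In the coordinates of the table (GRCm38), Cdkn1a (ENSMUSG00000023067) lies on the plus strand at chr17:29090976-29100727 and has a gene length of 3553 bases. Cdkn1b (ENSMUSG00000003031) lies on the plus strand at chr6:134920401-134925513, with 4552 bases. Cdkn2c (ENSMUSG00000028551) lies on the minus strand at chr4:109660876-109667189, with 2686 bases. Cdkn2d (ENSMUSG00000096472) lies on the minus strand at chr9:21288410-21291407, with 1574 bases. Of the 50-base words in the Cdkn1a exons, 8.49% occur in transcripts of other genes, read on either strand. Its span overlaps AC167363.2, an unconfirmed transcript on the opposite strand, and the 8.49% can include words of that overlap. The other 3 genes share 0% of such words and overlap no annotated gene. No label or file header states whether counting used strand, so reads of Cdkn1a and AC167363.2 cannot be told apart where they overlap.

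The 250 bases before the start sites are shown because the 4 genes were lower together in the libraries with D in their name. They are RefSeq sequences on GRCm38.p6, each read 5′ to 3′ on the strand of its gene, at chr17:29090729-29090978 and chr17:29093519-29093768 for 2 starts of Cdkn1a, chr6:134920151-134920400 for Cdkn1b, chr4:109666757-109667006 for the upstream start of Cdkn2c and chr9:21291210-21291459 for Cdkn2d. Capitals mark matches on either strand to a GC box (GGGCGG, the core bound by Sp1), a CCAAT box (CCAAT), or the consensus half-site of p53.
Cdkn1a, upstream start: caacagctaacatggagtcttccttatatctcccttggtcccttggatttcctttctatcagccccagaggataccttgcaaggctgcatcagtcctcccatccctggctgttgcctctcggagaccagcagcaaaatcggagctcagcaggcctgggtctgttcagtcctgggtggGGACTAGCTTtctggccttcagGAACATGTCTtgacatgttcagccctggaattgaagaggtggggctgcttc
Cdkn1a, downstream start: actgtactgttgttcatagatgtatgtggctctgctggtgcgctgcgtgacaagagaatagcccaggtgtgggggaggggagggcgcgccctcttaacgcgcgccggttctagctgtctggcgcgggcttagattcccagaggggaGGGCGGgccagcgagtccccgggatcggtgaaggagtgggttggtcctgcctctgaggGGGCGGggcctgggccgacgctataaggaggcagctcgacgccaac
Cdkn1b: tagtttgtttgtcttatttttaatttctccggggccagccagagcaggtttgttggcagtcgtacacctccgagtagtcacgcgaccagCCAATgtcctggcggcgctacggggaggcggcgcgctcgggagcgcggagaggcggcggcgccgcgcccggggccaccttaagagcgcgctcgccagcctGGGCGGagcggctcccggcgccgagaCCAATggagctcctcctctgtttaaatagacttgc
Cdkn2c: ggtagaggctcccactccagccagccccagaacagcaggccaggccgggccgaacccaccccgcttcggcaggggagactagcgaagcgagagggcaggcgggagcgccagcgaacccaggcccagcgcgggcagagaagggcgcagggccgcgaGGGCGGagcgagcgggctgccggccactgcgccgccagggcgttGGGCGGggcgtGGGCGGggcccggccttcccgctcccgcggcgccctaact
Cdkn2d: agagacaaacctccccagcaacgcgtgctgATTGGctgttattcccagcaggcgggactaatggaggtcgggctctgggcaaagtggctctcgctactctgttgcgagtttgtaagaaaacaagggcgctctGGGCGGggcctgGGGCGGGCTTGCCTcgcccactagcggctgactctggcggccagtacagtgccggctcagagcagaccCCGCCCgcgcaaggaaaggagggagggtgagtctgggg
The upstream window of Cdkn1a held 2 p53 half-site matches, 73 to 64 and 51 to 42 bases before the start, and its downstream window held 2 GC boxes. The Cdkn1b window held 1 GC box and 2 CCAAT boxes. The Cdkn2c window held 3 GC boxes, whereas the window of its other RefSeq start, at chr4:109665373-109665622 and not printed, held no match to any motif searched. The Cdkn2d window held 3 GC boxes, 1 CCAAT box on the other strand and 1 p53 half-site match that overlaps a GC box. Among 32851 RefSeq windows of the same length, 32.7% held a GC box, 33.8% a CCAAT box and 7.13% a p53 half-site. None of the 6 windows searched held TATAAA, or the E2F site letters TTTCCCGC or TTTGGCGC, which occurred in 12.4%, 0.895% and 0.417% of all windows. These matches are descriptions of the letters.

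The reads in the table summed to 12.8 to 15.7 M reads (mega-reads) per library, and FPKM values were whole multiples of what 1 read is worth. The library size behind the authors' scaling was 7.13 to 8.4 M reads with D in the name and 28.2 to 31.1 M reads without it, so that 1 read in a gene of 1000 bases was worth 0.119 to 0.140 FPKM with D and 0.0322 to 0.0355 FPKM without it. Mitochondrial genes held 7.41 to 14.4% of the reads with D and 3.30 to 4.2% without it, and ribosomal protein genes 14.0 to 16.2% and 5.80 to 6.63%. NP-D@M libraries 7 and 8 listed 2199 and 2174 genes at 0, against 1038 in library 9 and 1104 to 1211 in the NP-D@MP libraries. Of the markers of colon epithelium, 3 of 9 were analysed here; the sum of Krt18, Krt20 and Lgr5 was 80.0 to 91.2 FPKM with NP-D@MP, 73.1 to 87.8 with NP-D@M, 15.1 to 16.4 with NP@M and 15.3 to 18.7 with PBS. Krt20 was 71.3 to 88.2 FPKM with D and 7.83 to 9.64 without it, Krt18 went the other way with 1.73 to 5.97 FPKM with D and 5.61 to 9.61 without it, and Lgr5 was at or near 0 in both. All 6 mesenchymal markers were present, with Vim at 1205 to 1546 FPKM with D and 397.3 to 466.6 without it, but Col1a1 at 0.882 to 1.73 FPKM with D and 10.8 to 14.5 without it, Col1a2 at 7.94 to 12.8 and 53.2 to 63.4, Pdgfrb at 0.244 to 1.31 and 4.37 to 7.01, and Pdgfra and Dcn under 1 FPKM in every library. Of the myeloid markers, 2 of 5 (Cd68, Lyz2) summed to 9.31 to 21.3 FPKM with D and 2.58 to 3.25 without it. None of 4 T cell and 8 retina markers was analysed here. The part of library size, mitochondrial share and these markers in the results below was not tested, and in bulk RNA fewer cells of a type and less RNA per cell cannot be told apart.

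All 4 inhibitor genes fell in both groups with D in the name, against NP@M as well as PBS, and in every such pair of groups no library of one overlapped the other. The fall was between 4.0-fold and 4.85-fold for Cdkn1a and 14.7-fold or more in mean FPKM for Cdkn2c and Cdkn2d. Many other genes were also lower: 47.7% of 10101 genes were called lower in NP-D@M vs NP@M, 47.3% in NP-D@MP vs NP@M, 47.5% in NP-D@M vs PBS and 47.3% in NP-D@MP vs PBS, and 41.8%, 43.5%, 41.6% and 43.2% higher in the same order, so that 4 of 4 genes called lower is a count to be read against that background. Groups that did not overlap, with the lower values in the D group, made up 46.6%, 47.9%, 46.8% and 48.3% of tested genes in these 4 comparisons. Calls were made in limma on log2(FPKM + 1) where the Benjamini-Hochberg adjusted p was under 0.05, on a scale that understates changes of low genes, and all 4 genes passed its filter of 1 FPKM in 3 libraries. Among the libraries with D, Cdkn2c reached 1 FPKM only in library 11 (1.18 FPKM), so it passed through the libraries without D. Cdkn2d reached it with D in libraries 8, 11 and 12, at 1.23, 1.09 and 1.43 FPKM.

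**Figure D1:**
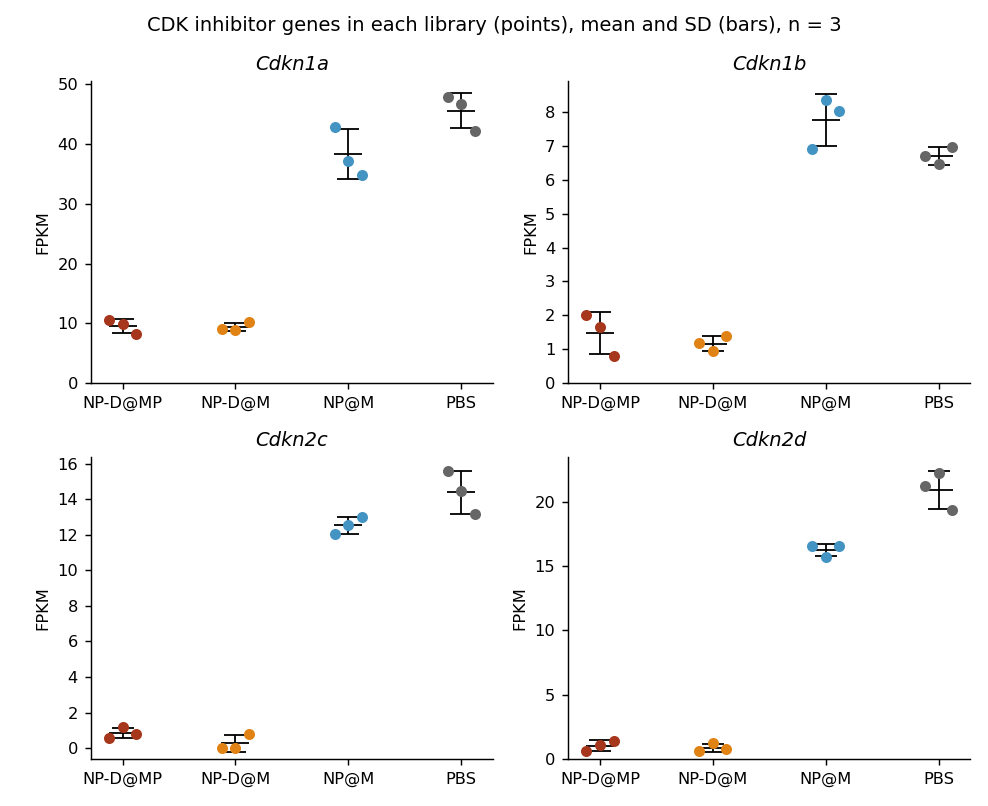
FPKM (vertical axes, each from its own scale) of the 4 CDK inhibitor genes in each library of NP-D@MP, NP-D@M, NP@M and PBS; points are libraries, bars the mean and SD (n = 3). All 6 libraries with D lie below all 6 without D for each gene, and Cdkn2c is listed at 0 in 2 NP-D@M libraries.

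Among the Cip/Kip genes, Cdkn1a, which encodes the p53-induced inhibitor p21, had 10.6, 9.91 and 8.29 FPKM with NP-D@MP. It had 9.15, 8.88 and 10.2 FPKM with NP-D@M, 43.0, 37.3 and 34.9 FPKM with NP@M, and 47.9, 46.7 and 42.3 FPKM with PBS. The libraries with D lay close together and well below the rest, and both D groups overlapped each other. Means were 9.6 ± 1.19 FPKM with NP-D@MP, 9.41 ± 0.685 with NP-D@M, 38.4 ± 4.15 with NP@M and 45.6 ± 2.96 with PBS (SD, n = 3 each). Against NP@M, Cdkn1a was 4.08-fold lower with NP-D@M (log2 change -1.92, SE 0.113, adjusted p 1.68e-08 by limma). With NP-D@MP the log2 change against NP@M was -1.89. Cdkn1a rested on 210 to 297 reads per library with D and 3852 to 5221 without it.

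Cdkn1b, which encodes p27, an inhibitor of cyclin E and cyclin A complexes with Cdk2, was the lowest of the 4 genes without D. It had 2.0, 1.65 and 0.801 FPKM with NP-D@MP, 1.18, 0.939 and 1.39 with NP-D@M, 6.90, 8.35 and 8.04 with NP@M, and 6.69, 6.46 and 6.98 with PBS. The NP-D@MP libraries spread more widely than the NP-D@M libraries and enclosed them. Means were 1.48 ± 0.616 FPKM with NP-D@MP, 1.17 ± 0.227 with NP-D@M, 7.76 ± 0.762 with NP@M and 6.71 ± 0.263 with PBS (SD, n = 3 each). Against NP@M, Cdkn1b was 6.64-fold lower with NP-D@M (log2 change -2.02, SE 0.166, adjusted p 2.98e-07 by limma) and 5.24-fold lower with NP-D@MP (log2 change -1.85). Its reads numbered 26 to 68 per library with D.

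Among the INK4 genes, Cdkn2c, which encodes the Cdk4 and Cdk6 inhibitor p18, had 0.597, 1.18 and 0.783 FPKM with NP-D@MP. It was listed at 0 in NP-D@M libraries 7 and 8 and had 0.816 FPKM in library 9, against 12.1, 12.6 and 13 FPKM with NP@M and 15.6, 14.4 and 13.2 FPKM with PBS. Library 9, the NP-D@M library with fewer genes at 0, thus lay within the range of NP-D@MP, and the other two lay below it. In reads, Cdkn2c had 12, 24 and 15 with NP-D@MP and 0, 0 and 18 with NP-D@M, against 993 to 1085 with NP@M. The mean was 0.853 ± 0.297 FPKM with NP-D@MP and 12.5 ± 0.476 with NP@M (SD, n = 3 each), a 14.7-fold lower level with NP-D@MP (log2 change -2.88, SE 0.206, adjusted p 8.24e-08 by limma). The change of Cdkn2c in NP-D@M vs NP@M was -3.47 on the log2 scale (SE 0.206, adjusted p 1.69e-08 by limma) over all libraries and -2.90 without libraries 7 and 8, with the lone NP-D@M library then assumed to vary like the other groups. On the recovered reads, where limma voom sets a fitted value in place of 0 that depends on its prior count, the change was -7.31.

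Cdkn2d, which encodes the other INK4 protein, p19, had 0.595, 1.09 and 1.43 FPKM with NP-D@MP and 0.605, 1.23 and 0.774 FPKM with NP-D@M. It had 16.5, 15.7 and 16.5 FPKM with NP@M and 21.2, 22.3 and 19.4 FPKM with PBS. The D groups overlapped, and neither came near the NP@M libraries. Means were 1.04 ± 0.418 FPKM with NP-D@MP, 0.868 ± 0.321 with NP-D@M, 16.3 ± 0.463 with NP@M and 21 ± 1.47 with PBS (SD, n = 3 each). Against NP@M, Cdkn2d was 18.7-fold lower with NP-D@M (log2 change -3.22, SE 0.156, adjusted p 3.02e-09 by limma) and 15.7-fold lower with NP-D@MP (log2 change -3.11). Only 7 to 16 reads per library stood behind the values with D, so the size of the fold is imprecise.

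Against PBS the log2 changes with NP-D@M were -2.16 for Cdkn1a, -1.83 for Cdkn1b, -3.65 for Cdkn2c and -3.57 for Cdkn2d. With NP-D@MP they were -2.14, -1.67, -3.06 and -3.45 for the same genes in that order. The comparisons share the D groups with those against NP@M and are not independent of them. Among all tested genes, 0.228% had a lower log2 change than Cdkn2c in NP-D@M vs NP@M, 0.465% a lower one than Cdkn2d, 5.72% than Cdkn1b and 6.95% than Cdkn1a. In NP-D@MP vs NP@M these shares were 0.812% for Cdkn2c, 0.455% for Cdkn2d, 7.5% for Cdkn1b and 6.8% for Cdkn1a. The rank of Cdkn2c in NP-D@M vs NP@M rests on libraries 7 and 8 at 0, without which its change was -2.90. Cdkn2c is among 95 genes with at least 10 reads in library 9 and 0 in libraries 7 and 8. On the log2(FPKM + 1) scale the level without D also bounds how far a gene can fall. The median log2 change of all tested genes in NP-D@M vs NP@M was -0.19. When libraries were scaled to the reads in the table in place of the authors' library sizes, this median became -1.46, and the changes of Cdkn1a, Cdkn1b, Cdkn2c and Cdkn2d became -3.63, -3.32, -4.52 and -4.50, so all 4 lay below the median on both scales.

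**Figure D2:**
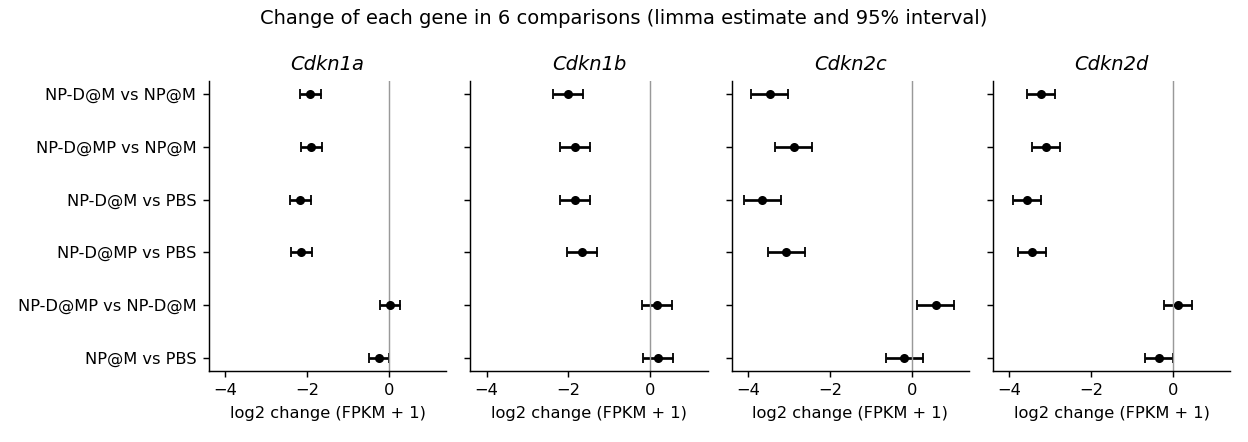
Log2 change on the log2(FPKM + 1) scale (horizontal axis) of each gene in the 6 comparisons named on the left; points are limma estimates, bars the 95% confidence intervals. The 4 comparisons of a D group with a group without D lie at -1.67 or lower for every gene, and the other two lie near 0, with Cdkn2c in NP-D@MP vs NP-D@M highest at 0.59.

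**Figure D3:**
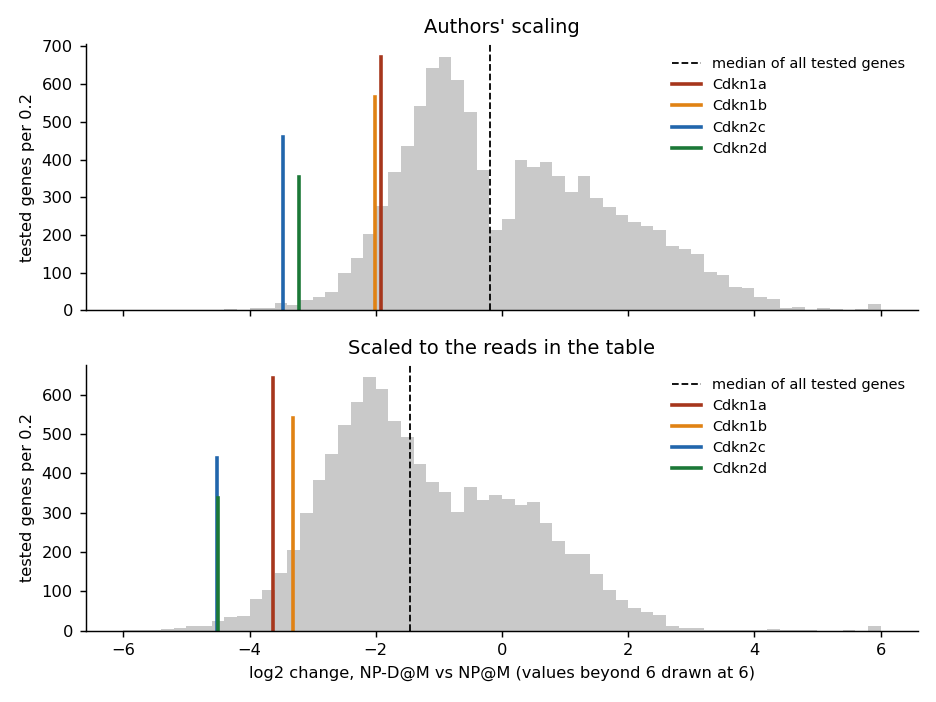
Log2 changes of all 10101 tested genes in NP-D@M vs NP@M (grey, number of genes per bin) with the 4 CDK inhibitor genes as coloured lines, whose heights carry no value, and the median of all genes dashed. Upper panel, the authors' scaling with a median of -0.19; lower panel, scaling to the reads in the table with a median of -1.46; the INK4 genes lie in the lower tail of both.

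Adding P to the name of the D-loaded preparation moved none of the 4 genes past the threshold. In NP-D@MP vs NP-D@M the log2 change was 0.02 for Cdkn1a (95% interval -0.23 to 0.27), 0.17 for Cdkn1b (-0.20 to 0.53) and 0.12 for Cdkn2d (-0.23 to 0.46). For Cdkn2c it was 0.59 (0.14 to 1.04), with an unadjusted p of 0.015 and an adjusted p of 0.225 by limma. The groups overlapped for each of the 4 genes; of all tested genes, 4.6% did not overlap and were lower with NP-D@MP, and 9.57% did not overlap and were higher. Across all tested genes 0.0396% were called higher and 0.0099% lower in this comparison, with 1713 at an unadjusted p under 0.05. The value for Cdkn2c turned on which NP-D@M libraries entered: without library 9 it was 0.88 with an adjusted p of 0.0045 by limma, and without libraries 7 and 8 it was 0.02 with an adjusted p of 0.993. With limma voom on the recovered reads it was 3.42 with an adjusted p of 0.233, again against a group with 2 libraries at 0. The intervals leave room for changes of the size of their bounds, so these data do not show that the D groups have equal levels.

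The carrier without D, NP@M, was set against PBS for its own effect. None of the 4 genes passed the threshold, and 0.0099% of tested genes were called lower and 0% higher, with 1092 at an unadjusted p under 0.05. The log2 change was -0.25 for Cdkn1a (95% interval -0.50 to 0.0027, adjusted p 0.463 by limma), 0.18 for Cdkn1b (-0.18 to 0.55), -0.18 for Cdkn2c (-0.63 to 0.27) and -0.34 for Cdkn2d (-0.69 to -0.0020, adjusted p 0.460 by limma). The NP@M libraries all lay below the PBS libraries for Cdkn2c and Cdkn2d, as they did for 16% of tested genes, with 12.4% lying wholly above.

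The order of the genes by level per length also differed between the groups. With NP@M and with PBS it ran Cdkn1a, Cdkn2d, Cdkn2c and Cdkn1b from high to low, and no 2 neighbours in this order overlapped between libraries. With NP-D@MP and with NP-D@M, Cdkn1a was again far above the rest, whereas Cdkn1b, Cdkn2d and Cdkn2c followed close together, and with NP-D@MP the ranges of these 3 genes overlapped. Cdkn1a made up 74.0 ± 2.67% of the summed FPKM of the 4 genes with NP-D@MP and 80.5 ± 3.17% with NP-D@M, against 51.1 ± 3.36% with NP@M and 52.0 ± 0.358% with PBS (SD, n = 3 each).

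A ratio of genes within a library does not depend on how libraries were scaled to each other. The summed FPKM of the Cip/Kip genes over that of the INK4 genes was 10.6, 5.10 and 4.12 with NP-D@MP and 17.1, 8.01 and 7.28 with NP-D@M, against 1.74, 1.61 and 1.45 with NP@M and 1.48, 1.45 and 1.51 with PBS. Every library with D lay above every library without it, so within these cells the INK4 share was smaller with D. The log2 difference was 2.64 ± 0.686 for NP-D@M vs NP@M and 1.92 ± 0.726 for NP-D@MP vs NP@M (SD, n = 3 each). The exact two-sided permutation test gave p 0.1 for each, the smallest that 3 against 3 libraries can give, and an adjusted p of 0.15 over 12 ratio comparisons. NP-D@MP and NP-D@M overlapped, with a log2 difference of -0.72 ± 0.981 (exact permutation p 0.3). NP-D@M library 9, the one in which Cdkn2c was not listed at 0, had the lowest ratio of its group.

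The summed FPKM of the 4 inhibitors over that of their kinases Cdk1, Cdk2, Cdk4 and Cdk6 was 0.0203, 0.0216 and 0.0172 with NP-D@MP and 0.0192, 0.02 and 0.0207 with NP-D@M. It was 0.689, 0.739 and 0.723 with NP@M and 0.728, 0.697 and 0.742 with PBS. The groups with D lay far below those without it, with a log2 difference of -5.17 ± 0.0728 for NP-D@M vs NP@M (SD, n = 3 each; exact permutation p 0.1, the smallest possible). The denominator with D was nearly all Cdk4, which averaged 653.8 ± 19.4 FPKM with NP-D@MP and 580.1 ± 44.7 with NP-D@M, against 77.3 ± 6.63 with NP@M and 94.2 ± 9.80 with PBS (SD, n = 3 each). The other kinases were lower with D: Cdk1 was 1.23 ± 0.292 FPKM with NP-D@MP and 1.59 ± 0.515 with NP-D@M, against 17.3 ± 1.25 with NP@M and 17.6 ± 0.582 with PBS (SD, n = 3 each). Of the 50-base words of Cdk4, 17.0% occur in other genes, so its level is uncertain where reads were shared with those genes.

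**Figure D4:**
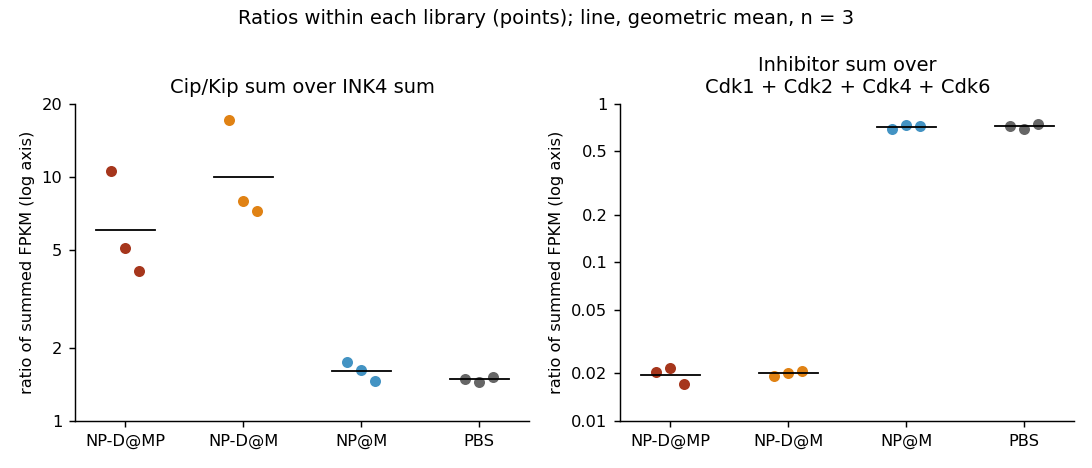
Ratios within each library on log axes: left, summed FPKM of Cdkn1a and Cdkn1b over that of Cdkn2c and Cdkn2d; right, summed FPKM of all 4 inhibitors over that of Cdk1, Cdk2, Cdk4 and Cdk6. Points are libraries and lines geometric means (n = 3); the left ratio is 4.12 to 17.1 with D and 1.45 to 1.74 without it, the right one 0.0172 to 0.0216 with D and 0.689 to 0.742 without it.

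The partners of these inhibitors moved both ways in NP-D@M vs NP@M, where 47.7% of tested genes were called lower and 41.8% higher. With scaling to the reads in the table these shares were 70.5% and 17.5%, and with quantile normalization 41.8% and 37.7%. Of 11 kinases and cyclins that the inhibitors bind, 8 fell and 3 rose, with a median log2 change of -0.85 against -0.19 for all tested genes. Cdk4 rose most, by 2.89 on the log2 scale (adjusted p 3.16e-10 by limma), and Ccna2, the cyclin of S phase, fell by 3.24 (adjusted p 4.63e-10 by limma). Ccna2 averaged 2.13 ± 0.421 FPKM with NP-D@MP and 1.86 ± 0.384 with NP-D@M, against 25.9 ± 0.831 with NP@M and 25.4 ± 1.64 with PBS (SD, n = 3 each). With scaling to the table's reads, 10 fell and 1 rose (70.5% and 17.5% of all tested genes), and with quantile normalization 9 fell and 2 rose. Ccnd1, cyclin D1, had a log2 change of 1.49 in the authors' scaling but of -0.33 and -0.89 under these settings, and the change of Cdk4 was smaller, at 1.07 and 0.38. Of the 50-base words of Ccnd1, 21.6% occur in other genes, so its level is uncertain as well.

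Of 12 genes of the retinoblastoma and E2F families, which act below the kinases, 8 fell and 4 rose, with a median log2 change of -0.71. Of all tested genes, 47.7% were called lower and 41.8% higher, with a median of -0.19. Tfdp1, the dimerisation partner of E2F factors, rose by 2.53 (adjusted p 2.76e-10 by limma) and E2f8, a repressor among them, fell by 2.16 (adjusted p 8.46e-09 by limma). With scaling to the table's reads, 10 fell and 1 rose, beside 70.5% and 17.5% of all tested genes, and the change of Tfdp1 was 0.72, or 0.50 with quantile normalization. With quantile normalization 7 of the 12 fell and 3 rose, beside 41.8% and 37.7%, with a median of -0.41. Of 13 genes for the ubiquitin ligases and partners that degrade p21 and p27, 5 fell and 8 rose, with a median of 0.97. That median was -0.77 with scaling to the table's reads and -0.15 with quantile normalization. Ddb1, an adaptor of the Cul4 ligase, rose by 2.40 (adjusted p 3.89e-10 by limma), which was 0.57 with scaling to the table's reads and -0.15 with quantile normalization, and Cul1, the scaffold of the Skp2 ligase, fell by 2.80 (adjusted p 9.43e-10 by limma). Skp2, which recognises p27, fell by 0.31 (adjusted p 0.0193 by limma), but its change was 0.22 with quantile normalization and -0.07 in NP-D@M vs PBS (adjusted p 0.545 by limma). With scaling to the table's reads, 10 of the 13 fell and 2 rose, beside 70.5% and 17.5% of all tested genes, and with quantile normalization 6 fell and 2 rose, beside 41.8% and 37.7%.

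Of 15 transcriptional regulators of the inhibitor genes, 12 fell and 1 rose, beside 47.7% of all tested genes called lower and 41.8% higher. Their median log2 change was -0.91, against -0.19 for all tested genes. Smad3, the signal carrier of TGF-beta, fell by 3.28 (adjusted p 2.47e-09 by limma) and had 0.520 ± 0.317 FPKM with NP-D@MP and 0.355 ± 0.198 with NP-D@M, against 12.1 ± 0.347 with NP@M and 13.1 ± 0.932 with PBS (SD, n = 3 each). Trp53, which encodes p53, was the gene that rose, by 1.20 (adjusted p 9.09e-07 by limma), but its change was -0.57 with scaling to the reads in the table and -0.09 with quantile normalization. Klf4, a factor that binds the Cdkn1a promoter, fell by 3.0 and Sp1, which binds GC boxes, by 2.43 on the log2 scale. Scaled to the table's reads, 15 fell and 0 rose, beside 70.5% and 17.5% of all tested genes. With quantile normalization 11 fell and 1 rose, beside 41.8% and 37.7%.

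Of 17 p53 target genes other than the inhibitors, among them Mdm2, which is also among the regulators, 10 fell and 6 rose, with a median log2 change of -0.48, where 47.7% of all tested genes were called lower and 41.8% higher. Bax, the pro-apoptotic BCL2 relative, rose by 2.21 (adjusted p 8.58e-09 by limma), which shrank to 0.40 with scaling to the table's reads and 0.15 with quantile normalization. Sesn2, a stress-induced regulator of mTOR, fell by 3.23 (adjusted p 1.32e-08 by limma). Scaled to the table's reads, 14 fell and 2 rose, beside 70.5% and 17.5% of all tested genes. Of 7 other genes linked to CDKs or their inhibitors, 5 fell and 2 rose. Cdk2ap1, a Cdk2-associated protein, rose by 2.29 (0.50 with scaling to the table's reads) and Cdkn2aip, a partner of the Cdkn2a product ARF, fell by 1.36 (adjusted p 2.11e-07 and 1.09e-07 by limma). With scaling to the table's reads, 5 of the 7 fell and 1 rose, beside 70.5% and 17.5% of all tested genes. With quantile normalization 4 fell and 1 rose, beside 41.8% and 37.7%. In NP-D@MP vs NP-D@M and in NP@M vs PBS, 0 genes of these 6 lists were called.

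**Figure D5:**
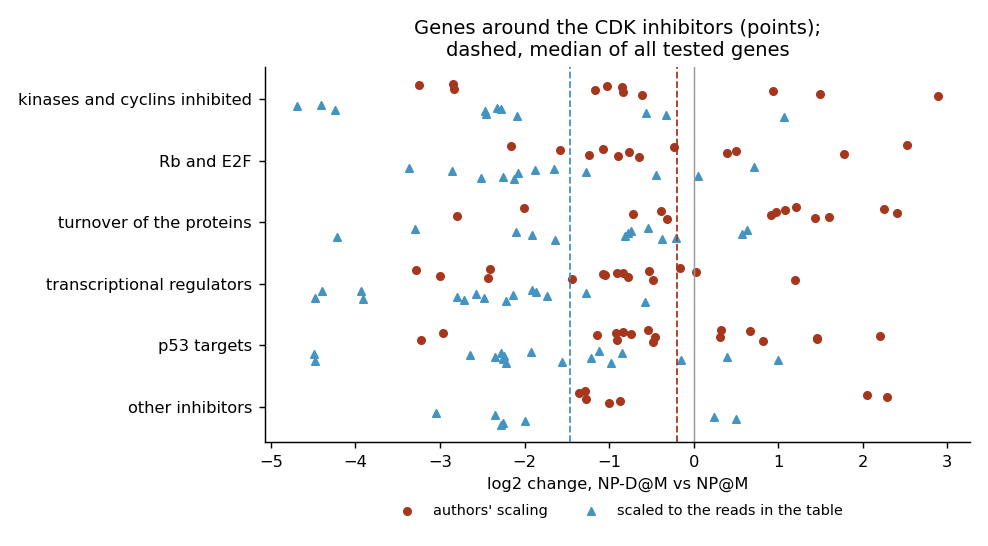
Log2 change in NP-D@M vs NP@M (horizontal axis) of the tested genes in 6 lists around the CDK inhibitors; circles are the authors' scaling, triangles scaling to the reads in the table, and dashed lines the medians of all tested genes, -0.19 and -1.46. Ccna2, at -3.24, is the leftmost circle of the kinases and cyclins, and Cdk4, at 2.89, the rightmost circle of all.

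The likeness of other genes to each inhibitor was measured as the root mean square difference, over the 12 libraries, of log2(FPKM + 1) centred on each gene's own mean, among 4469 protein-coding genes with a mean of at least 5 FPKM. Most like Cdkn1a were Numa1 (0.1), Mknk2 (0.126) and Slc20a1 (0.127), and most like Cdkn1b were Rab10 (0.105), Ggnbp2 (0.127) and Ppp2ca (0.147). Most like Cdkn2c were Tubb4b (0.176), Mid1ip1 (0.196) and Sesn2 (0.218), and most like Cdkn2d were Smad3 (0.139), Slc1a5 (0.180) and Amotl2 (0.203). A difference under 0.3 was found for 222 genes with Cdkn1a and 212 with Cdkn1b, but for 18 with Cdkn2c and 26 with Cdkn2d. Between the inhibitors it was 0.241 for the Cip/Kip pair and 0.327 for the INK4 pair, and 0.688 to 0.836 for pairs across the families. The points share libraries and the difference between groups with and without D, so this is a description only.

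The nearest genes on each side were looked up after the values of the inhibitors were known. Only genes with a row in the table were searched, so annotated genes without a row can lie closer. Lockd, a long noncoding RNA 3.58 kb downstream of Cdkn1b, went the other way from its neighbour: it had 7.88 ± 1.20 FPKM with NP-D@MP and 6.02 ± 1.61 with NP-D@M, against 0.849 ± 0.156 with NP@M and 0.870 ± 0.0754 with PBS (SD, n = 3 each). In NP-D@M vs NP@M Lockd rose by 1.90 on the log2 scale (adjusted p 3.45e-07 by limma), and by 0.68 with scaling to the reads in the table (adjusted p 0.000907 by limma). Of the 50-base words of Lockd, 5.44% occur in other genes. Faf1, 9.40 kb from Cdkn2c and encoding a Fas-binding protein, fell by 1.49 (adjusted p 1.72e-08 by limma), less than Cdkn2c itself. Rnf11, the nearest gene of the table on the other side of Cdkn2c, lies 176 kb away. Rnf11 rose by 0.60 (adjusted p 0.000989 by limma) but changed by -1.14 with scaling to the table's reads. Kri1, 0.441 kb from Cdkn2d, had 1.66 ± 0.194 FPKM with NP-D@M and 1.32 ± 0.363 with NP@M (SD, n = 3 each; log2 change 0.20, adjusted p 0.142 by limma), and with scaling to the table's reads its change was -0.90 (adjusted p 3.34e-05 by limma). Slc44a2, 29.3 kb away on the other side of Cdkn2d, rose by 0.29 (adjusted p 0.0405 by limma) but changed by -1.24 with that scaling. Rpl35a-ps3, a processed pseudogene 36.2 kb from Cdkn1a, rose by 3.53 (adjusted p 1.26e-06 by limma) and by 1.88 with that scaling; its reads can be shared with its parent gene. 2810454H06Rik, on the other side of Cdkn1b, was below the filter.

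Next to Cdkn1a, the long noncoding RNA Trp53cor1 (lincRNA-p21), another p53 target, lies 11.8 kb away and was below the filter. It had 0, 0 and 2 reads with NP-D@MP and 11, 0 and 5 with NP-D@M, against 61, 54 and 36 with NP@M and 72, 64 and 75 with PBS. The antisense transcript AC167363.2 within the Cdkn1a span had 6.76 ± 0.584 FPKM with NP-D@MP and 9.32 ± 5.11 with NP-D@M, against 0.757 ± 0.283 with NP@M and 0.731 ± 0.339 with PBS (SD, n = 3 each). It rose by 2.40 on the log2 scale in NP-D@M vs NP@M (adjusted p 4.59e-05 by limma) on 26 to 110 reads per NP-D@M library, while Cdkn1a fell. With scaling to the reads in the table AC167363.2 rose by 1.2 (adjusted p 0.00605 by limma). Reads of AC167363.2 and Cdkn1a cannot be told apart where they overlap.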

How the data were processed

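RNA sequencing was measured in 12 libraries in 4 groups of 3. The authors deposited 1 table of FPKM values for 12584 genes, with coordinates and gene lengths; the unit was inferred from the values, and no source used here names the gene counter. Per the submitters' processing notes, Bowtie 0.12.2 and mm8 were used, but 12571 of the 12584 identifiers were found in GENCODE M21 (GRCm38), 12104 with identical coordinates. The extract protocol in the labels speaks of retinas, in conflict with the CT26 line. FPKM times length was a whole multiple of 1 step per library for 100% of values (tolerance 1e-06), which gave the reads and the authors' library sizes.

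Genes were tested in R 4.3.3 with limma 3.58.1, on log2 values after adding 1 FPKM, all 12 libraries in 1 fit, for the 10101 genes that reached 1 FPKM in 3 or more libraries, with Benjamini-Hochberg adjustment. Ratios were compared by an exact two-sided permutation test. The limma step was tested on simulated reads in which both groups had the same library scale, unlike the libraries with and without D here. The ratio test was not tested in this way. The genes and lists were chosen with earlier results of these data known; in each list the genes with the largest rise and the largest fall in NP-D@M vs NP@M were named, and a few others (Ccnd1, Skp2, Klf4, Sp1, the nearest genes and AC167363.2) were named after their values were seen. Likeness took the 3 nearest genes per inhibitor. Alternatives were other scalings, filters, pseudocounts, libraries and limma settings. Library numbers are not shared between groups, so no paired fit was made, and 0 columns of samples were left unused. Depth limits precision: folds of genes with few reads are uncertain by counting error alone.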

Additional observations from a re-analysis of the deposited data

How the results depend on the processing

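In the 4 comparisons of a D group with a group without D, the 4 inhibitor genes kept their direction and call in all 364 recomputed changes. Many of these could not change direction. Leaving out a library of a group not compared, or calling at an adjusted p under 0.01, leaves the log2 change itself as it was. Cdkn1b was below the filter of a mean of 5 FPKM and had no value there. In NP-D@MP vs NP-D@M, where Cdkn1a changed by 0.02, its sign turned to -0.00502 with a common median ratio, -0.035 with quantile normalization, -0.034 with scaling to the reads in the table and -0.083 without NP-D@M libraries 7 and 8 (chosen after seeing the data), and leaving out 1 library gave -0.046 (library 10) to 0.115 (library 12), with -0.013 without library 8 and -0.000824 without library 11. Leaving out 1 library moved Cdkn2d between -0.020 (library 12) and 0.282 (library 10); the cause was not tested. Without NP-D@M library 9, 1 inhibitor gene (Cdkn2c) was called higher in that comparison, against 0 with all libraries, and 969 genes in all were called higher and 290 lower, against 4 and 1. The ratio of the inhibitors to the kinases, with reads not divided by length, gave log2 differences of -4.64 for NP-D@M vs NP@M, -4.68 for NP-D@MP vs NP@M, -4.68 for NP-D@M vs PBS and -4.71 for NP-D@MP vs PBS, each D group lower.

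With scaling to the reads in the table, 1765 genes were called higher in NP-D@M vs NP@M, 1871 in NP-D@MP vs NP@M, 1663 in NP-D@M vs PBS and 1771 in NP-D@MP vs PBS, and 7124, 7068, 7160 and 7145 lower in the same order. A mean of at least 5 FPKM left 1381, 1333, 1381 and 1339 called lower, against 4815, 4776, 4795 and 4777 in the main setting. The counts called higher did not move by over 1.5 times with that filter, so it cost mainly lower calls. The shares of all tested genes called lower that are given above hold for the main filter, not for genes of at least 5 FPKM. Among list counts, 72 of 1104 in these comparisons moved, by over 1.5 times or to or from 0. In the other comparisons all list counts were 0 in the main setting, and 7 of 552 moved from 0. edgeR and DESeq2 on recovered reads were not run; limma voom was used on those reads. No paired analysis was possible because the groups share no library numbers. The changes of Cdkn2c against groups without D ran to -7.31 (NP-D@M vs NP@M) and -7.50 (NP-D@M vs PBS) with limma voom, which depend on its prior count for libraries at 0. Depth limits the D values of Cdkn2c and Cdkn2d, which rest on 0 to 24 reads.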
